A study of Homo sapiens with 2 samples.

Results

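The G2 and mitosis genes are 58 genes whose products drive a cell from G2 phase through chromosome condensation, spindle assembly, chromosome separation and cytokinesis. They were taken from a list of gene names, and each gene comprised its annotated RefSeq transcripts plus the assembled transcripts on its strand that shared an intron with them. All 58 were among the 24870 genes with transcripts listed for both libraries, some of which are listed at a level of 0. The source was A549, an established line from a human adenocarcinoma of the lung, labelled as non-small cell lung cancer. Of its RNA-seq libraries, shPSPC1 was made from cells whose shRNA targets PSPC1, the gene of an RNA-binding protein in nuclear paraspeckles, and shLacZ from cells whose shRNA targets the bacterial gene LacZ, which human cells do not have. Both were grown in medium with 10% serum and 1% penicillin/streptomycin. Each group is 1 library, no test between them is possible, and no difference below has a replicate check. Whether the cells were clones or pools, and the time after shRNA delivery, are not given in the sources used here.

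Expression of these genes is low in G1 and climbs late in the cycle. In resting and early cycling cells the DREAM complex, built from p130 or p107, E2F4, DP1 and the MuvB proteins, holds them silent. MuvB binds a short element called the CHR (cell cycle genes homology region) near the transcription start, and NF-Y binds CCAAT boxes upstream of it. Later MuvB joins B-MYB and FOXM1, and the same promoters become active. CDK1 bound to cyclin B then starts mitosis, and the anaphase-promoting complex or cyclosome ends it by marking cyclins and securin for destruction. In bulk RNA, a change in the share of cells in G2 and mitosis and a change in RNA per cell cannot be told apart.

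Of the 58 genes, 49 matched a RefSeq promoter window on GRCh38.p14, from 250 bases before to 50 bases after the annotated start. The CHR was searched as TTTGAA or TTCGAA and the CCAAT box as CCAAT, both on either strand. Shown first are 3 promoters of central mitotic regulators (PLK1, the polo-like kinase; CCNB2, cyclin B2; CDC20, the activator of the cyclosome), then those of KIF14, which had the highest ratio by estimated fragments, and MKI67, which had the lowest ratio among the genes with a window here. Capitals mark CHR and CCAAT matches on either strand. The windows lie at chr16:23678639-23678938 (plus strand) for PLK1, chr15:59104896-59105195 (plus) for CCNB2, chr1:43358731-43359030 (plus) for CDC20, chr1:200620702-200621001 (minus) for KIF14 and chr10:128126374-128126673 (minus) for MKI67.
PLK1: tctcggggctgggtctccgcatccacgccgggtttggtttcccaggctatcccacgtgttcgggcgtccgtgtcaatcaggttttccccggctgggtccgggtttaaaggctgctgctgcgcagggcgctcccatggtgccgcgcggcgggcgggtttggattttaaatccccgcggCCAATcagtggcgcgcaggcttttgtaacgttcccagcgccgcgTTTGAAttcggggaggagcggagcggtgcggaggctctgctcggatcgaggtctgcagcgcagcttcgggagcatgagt
CCNB2: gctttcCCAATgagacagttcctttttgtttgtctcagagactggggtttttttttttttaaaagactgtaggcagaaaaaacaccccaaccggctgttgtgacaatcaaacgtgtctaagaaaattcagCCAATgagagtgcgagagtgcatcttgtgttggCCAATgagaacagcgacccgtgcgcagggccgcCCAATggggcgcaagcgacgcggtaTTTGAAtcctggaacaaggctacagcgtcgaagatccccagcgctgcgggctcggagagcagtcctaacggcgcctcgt
CDC20: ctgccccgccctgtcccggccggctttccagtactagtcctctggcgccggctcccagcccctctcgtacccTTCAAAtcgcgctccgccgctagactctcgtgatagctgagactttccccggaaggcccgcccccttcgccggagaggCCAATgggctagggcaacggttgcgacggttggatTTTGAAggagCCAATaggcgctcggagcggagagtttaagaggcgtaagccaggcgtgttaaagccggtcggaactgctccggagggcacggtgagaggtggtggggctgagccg
KIF14: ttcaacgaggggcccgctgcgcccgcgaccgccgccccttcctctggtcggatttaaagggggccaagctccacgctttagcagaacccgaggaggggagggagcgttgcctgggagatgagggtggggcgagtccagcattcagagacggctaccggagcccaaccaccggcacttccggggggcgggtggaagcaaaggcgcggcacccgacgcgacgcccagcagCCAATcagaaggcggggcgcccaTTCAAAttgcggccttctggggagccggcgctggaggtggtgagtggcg
MKI67: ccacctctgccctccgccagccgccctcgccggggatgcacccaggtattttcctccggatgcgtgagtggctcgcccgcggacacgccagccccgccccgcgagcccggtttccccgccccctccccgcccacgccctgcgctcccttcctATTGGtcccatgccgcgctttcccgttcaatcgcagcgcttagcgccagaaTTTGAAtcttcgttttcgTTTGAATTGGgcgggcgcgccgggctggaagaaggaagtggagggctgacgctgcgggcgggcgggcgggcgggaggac

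The CHR letters began 29 bases before the start in PLK1 and in CCNB2. MKI67 held the element in 2 copies, at 47 and 29 bases before the start, and in the nearer one the CHR runs into a CCAAT box read on the other strand. The CDC20 window had one CHR 65 bases before the start, between CCAAT boxes at 100 and 55 bases, and another, on the minus strand, at 178 bases. A CHR match was present in 37 of the 49 windows (75.5%), against 16.4% of all 35116 promoter windows. All windows shown above hold both motifs. Windows without a CHR match include those of CCNA2, CCNB1, AURKB, CDC25B, CDC25C, NEK2, CENPE and PTTG1. A list of 36 DNA replication genes, active earlier in the cycle, had 30 windows, of which 2 (6.67%) held the letters. CCAAT was present in 35 member windows (71.4%), against 60.0% of the DNA replication windows and 34.6% of all windows. Both motifs stood in 29 member windows (59.2%), against 6.67% of the DNA replication and 6.38% of all windows. The CDE-CHR tandem, in which a GCGG lies 4 bases before the CHR (GCGGNNNNTTTGAA or GCGGNNNNTTCGAA, either strand), was found in 5 member windows (10.2%), those of BUB1, CDCA3, CENPF, DLGAP5 and NUF2, against 0.151% of all windows. Every tandem match holds a CHR match. Of the 49 CHR matches, 35 began within 50 bases of the start, and of the 73 CCAAT matches, 58 began 20 to 150 bases upstream. These are matches of letters, and binding was not measured.

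**Figure D1:**
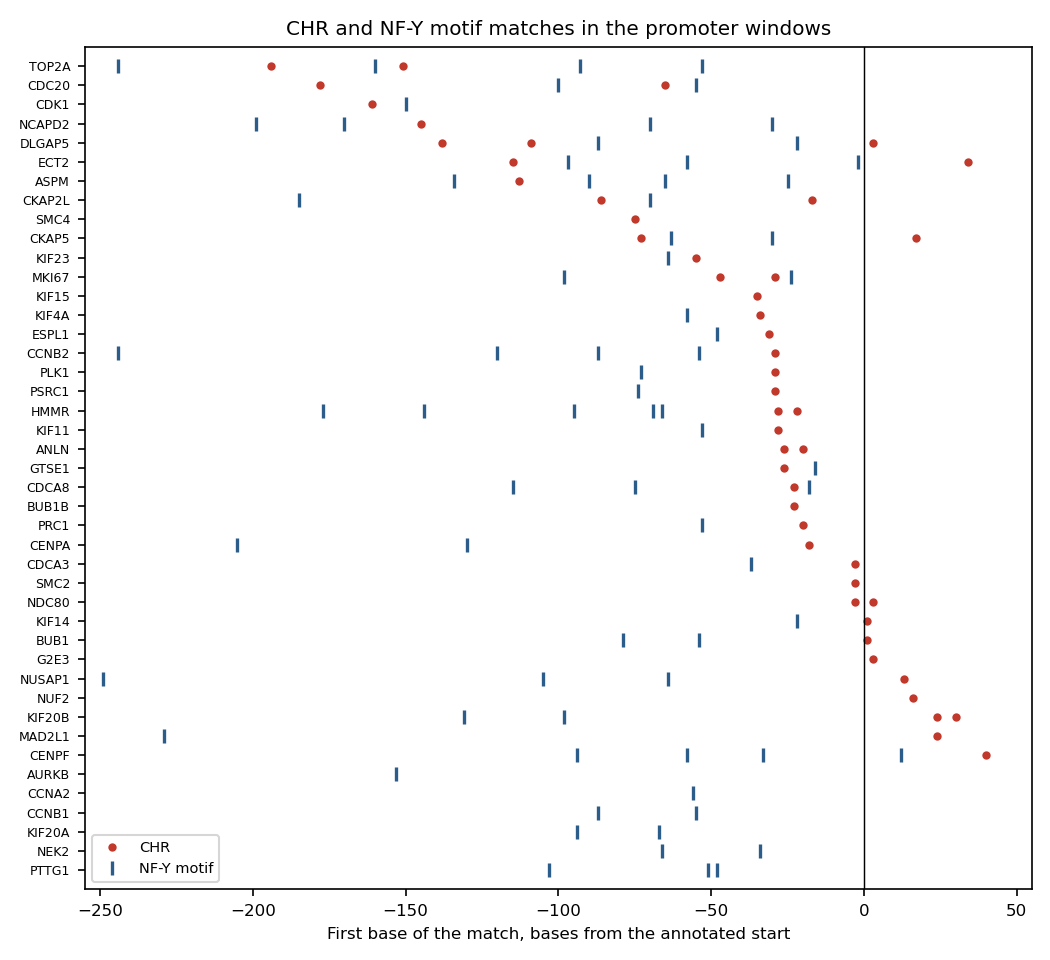
Position of CHR matches (red circles) and NF-Y motif (CCAAT box) matches (blue bars) in the promoter windows of the G2 and mitosis genes with a match of either kind, as bases from the annotated start (x axis), 1 gene per line. Of 49 CHR matches, 35 lie within 50 bases of the start, and 58 of 73 CCAAT matches lie 20 to 150 bases upstream.

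Levels are in FPKM (fragment density along the transcript, per kilobase and relative to library depth), summed over a gene's transcripts, and the value after ± is the half-width of the 95% interval within that library. A log2 ratio is shPSPC1 over shLacZ with 1 FPKM added to each, which understates changes of low genes. Because a short transcript assembled in 1 file can lift a sum with few fragments, each gene's fragments were also estimated from FPKM, transcript length and depth. A gene was called higher or lower when it had at least 1 FPKM in the higher library, a 2-fold difference (a log2 ratio of 1 in either direction) and intervals that did not overlap. Depth was estimated at 57100000 fragments in the shPSPC1 and 56200000 in the shLacZ library. PSPC1 itself had 17.7 ± 0.858 FPKM in shPSPC1 cells, against 31.5 ± 1.25 FPKM in shLacZ cells, which is 56.3% of the shLacZ level, a log2 ratio of -0.79 and short of the 2-fold limit. Of 7 markers of simple epithelium 6 reached 1 FPKM, with CLDN4 at 0, and their summed level was 2919.6 in shPSPC1 and 3708.3 FPKM in shLacZ cells. Of 10 leukocyte markers 2 reached 1 FPKM (CD14 and CD68), with CD3E, CD3D and MS4A1 among those at 0 in both libraries and sums of 11.7 and 18.3 FPKM in shPSPC1 and shLacZ cells. None of 10 fibroblast and endothelial markers did (sums of 0.8 FPKM in shPSPC1 and 1.1 FPKM in shLacZ cells), and the part of the epithelial difference in the results below was not tested.

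No G2 and mitosis gene passed the 2-fold rule. By summed FPKM, 0 of 58 were higher and 0 lower, against 1.66% of 11468 genes higher and 1.97% lower. By estimated fragments, 0 were higher and 0 lower, against 1.78% and 1.85% of 11372 genes. The median log2 ratio was -0.01 by summed FPKM and -0.02 by fragments, with 0.01 over all genes by either measure. By fragments, the genes ranged from -0.35 for CDCA2 to 0.3 for KIF14. All together the 58 genes had 426457 estimated fragments in shPSPC1 and 418874 in shLacZ cells, a log2 ratio of 0.0 once depth was allowed for. Their summed level was 2413.8 FPKM in shPSPC1 cells, against 2361.9 FPKM in shLacZ cells.

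The genes lay close to 0 one by one as well. By fragments, 34 of the 58 lay within 0.1 of 0 on the log2 scale, and the interquartile range ran from -0.1 to 0.08, against -0.13 to 0.13 for the 7002 genes with 5 FPKM in each library. Neither these 7002 nor the larger sets below were matched to the members for level. The members had medians of 31.3 FPKM in shPSPC1 and 31.1 in shLacZ cells, against 8.3 and 8.4 FPKM over 11468 genes. An absolute log2 ratio of 0.25 or more was found by fragments in 4 members, KIF14, MKI67, CDCA2 and ESPL1, against 29.9% of 11372 genes and 24.2% of those 7002. By summed FPKM it was found in 9 members, against 35.0% of 11468 genes. At 0.5 there were 0 by fragments, against 10.8% of 11372 genes and 6.33% of those 7002, and 1 by summed FPKM (TACC3), against 13.4% of 11468 genes. Intervals did not overlap for 31 of the genes by summed FPKM, against 51.7% of all genes, with 17 higher and 14 lower in shPSPC1 cells, against 26.0% and 25.7% of all genes. By fragments they did not overlap for 28, against 54.2%, with 13 higher and 15 lower, against 27.4% and 26.9%. A gene here had between 479 fragments, for PSRC1 in shPSPC1 cells, and 66284, for TOP2A in shPSPC1 cells. Counting error of the log2 ratio had a median half-width of 0.06 and reached 0.18 for PSRC1, so the smallest difference that counting could show varied from gene to gene.

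**Figure D2:**
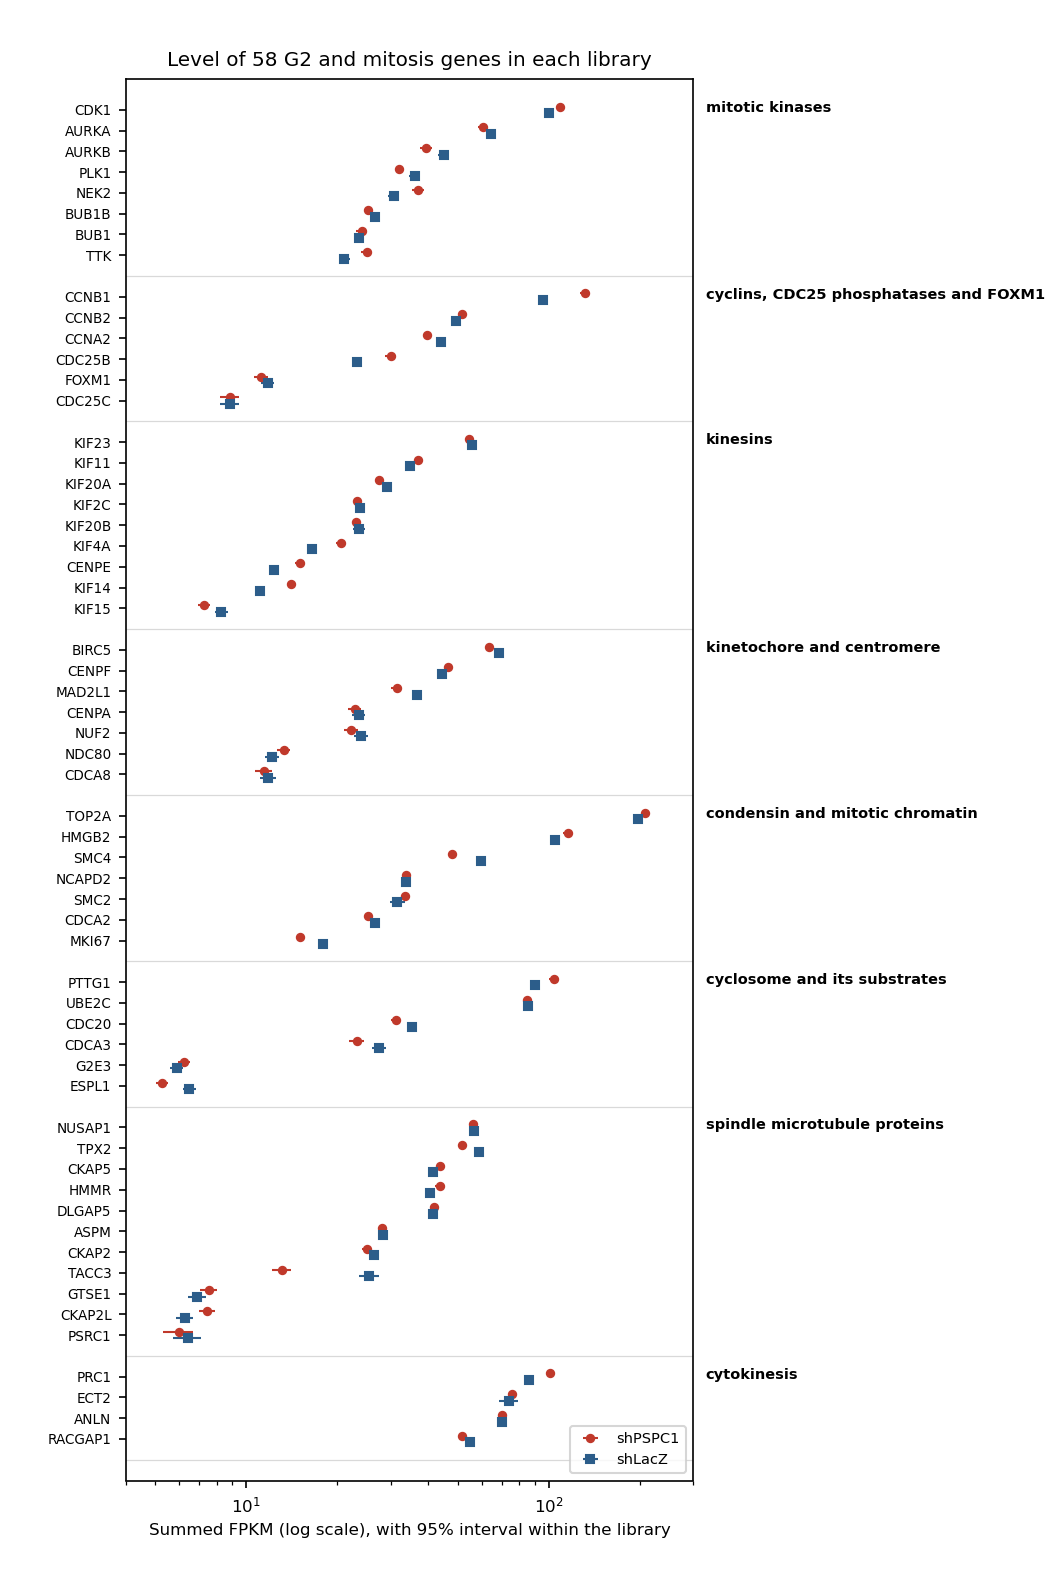
Summed FPKM (x axis, log scale) of the 58 G2 and mitosis genes in shPSPC1 (red circles) and shLacZ (blue squares) cells, by class, with horizontal bars for the 95% interval within each library (1 library each). The points nearly coincide for most genes, and TACC3 has the widest gap, at 13.1 in shPSPC1 and 25.5 in shLacZ cells.

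**Figure D3:**
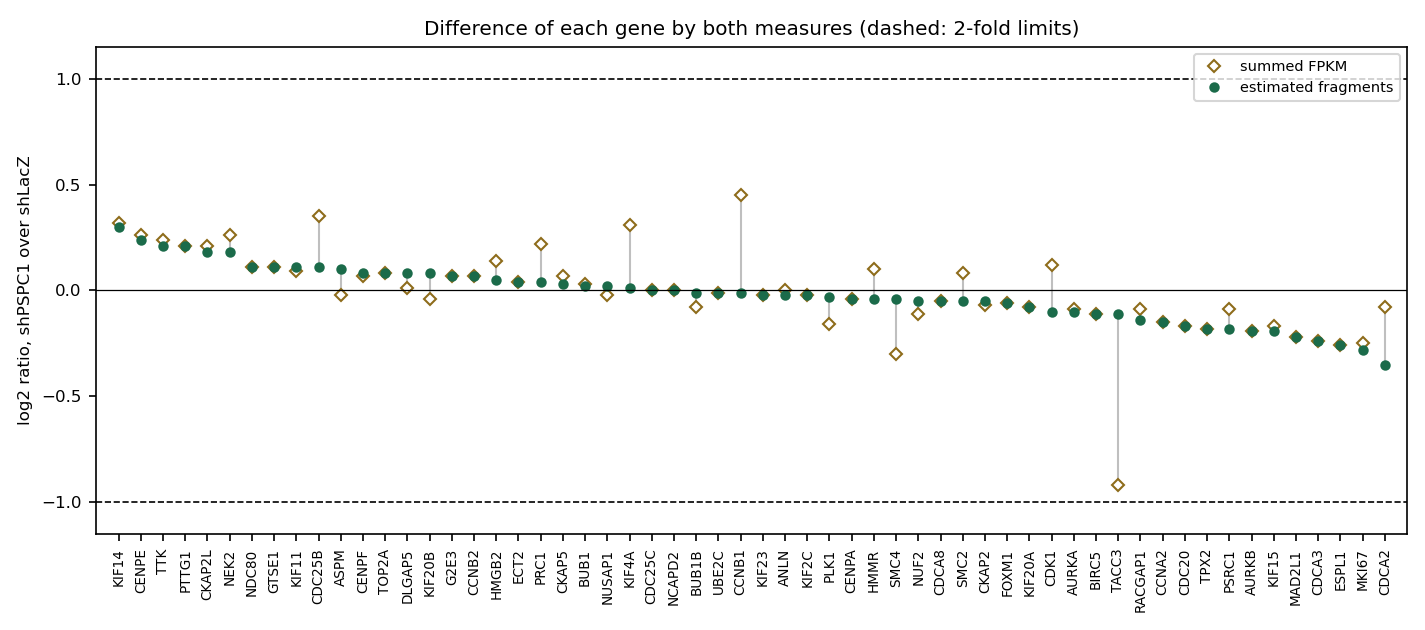
Log2 ratio of each gene, shPSPC1 over shLacZ (y axis), by summed FPKM (open diamonds) and by estimated fragments (green circles), ordered by the fragment-based ratio, with dashed lines at the 2-fold limits. No gene reaches a limit, and TACC3 and CCNB1 show the longest lines between the measures.

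The mitotic kinases switch mitosis on and watch over chromosome attachment. Their 8 genes had a median log2 ratio of -0.02 by both measures, with 36030 fragments in shPSPC1 and 35932 in shLacZ cells. CDK1, the kinase that starts mitosis with cyclin B, had 108.9 ± 3.54 FPKM in shPSPC1 cells, against 100.3 ± 2.96 FPKM in shLacZ cells, and 7120 against 7543 fragments. The sum was thus higher and the fragment-based ratio (-0.1) lower in shPSPC1 cells, where a 7-exon assembled transcript of 798 bases at 32.2 FPKM was present in that file alone. Aurora A (AURKA), which matures centrosomes, had 60.5 ± 2.09 FPKM in shPSPC1 cells and 64.6 ± 2.14 FPKM in shLacZ cells (log2 ratio -0.09). Aurora B (AURKB), of the chromosomal passenger complex, had 39.3 ± 1.75 in shPSPC1 and 45.0 ± 1.92 FPKM in shLacZ cells (-0.19). PLK1 had 32.1 ± 1.06 in shPSPC1 and 36.0 ± 1.4 FPKM in shLacZ cells, with nearly equal fragments (3670 and 3708). NEK2, which separates centrosomes, had 37.0 ± 1.56 in shPSPC1 and 30.7 ± 1.39 FPKM in shLacZ cells, and TTK, a checkpoint kinase, 25.0 ± 1.01 in shPSPC1 and 21.1 ± 0.911 FPKM in shLacZ cells. By fragments TTK (0.21) and NEK2 (0.18) had the highest ratios of the class. The checkpoint genes BUB1 (24.1 FPKM in shPSPC1, 23.6 in shLacZ cells) and BUB1B (25.2 and 26.6 FPKM) differed least, with 0.02 and -0.01 by fragments.

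Cyclins bind and switch on CDK1, and CDC25 phosphatases remove its inhibitory phosphates. The class of 6 genes had a median log2 ratio of 0.03 by summed FPKM and -0.01 by fragments. CCNB1, cyclin B1, had 131.5 ± 4.61 FPKM in shPSPC1 cells, against 96.1 ± 1.85 FPKM in shLacZ cells. Its intervals did not overlap and its log2 ratio of 0.45 was the highest sum-based ratio of all 58 genes. By fragments, however, CCNB1 had 10888 in shPSPC1 and 10840 in shLacZ cells, a ratio of -0.01. The shPSPC1 file held 2 assembled forms of 1493 and 1264 bases, at 55.6 and 38.9 FPKM, beside the annotated transcript of 2169 bases at 36.9 FPKM, where the shLacZ file put all 96.1 FPKM on the annotated one. CCNB2 had 51.8 ± 1.62 in shPSPC1 and 49.4 ± 1.59 FPKM in shLacZ cells (0.07), and CCNA2, cyclin A2, 39.5 ± 1.03 in shPSPC1 and 44.0 ± 1.09 FPKM in shLacZ cells (-0.15). The CCNA2 intervals lay apart, with the lower level in shPSPC1 cells, and those of CCNB2 overlapped. CDC25B had 30.0 ± 1.19 in shPSPC1 and 23.2 ± 0.754 FPKM in shLacZ cells, with a ratio of 0.35 by the sum and 0.11 by fragments. CDC25C had 8.82 ± 0.623 in shPSPC1 and 8.84 ± 0.637 FPKM in shLacZ cells. FOXM1, the forkhead factor that activates many of these promoters, had 11.2 ± 0.569 in shPSPC1 and 11.8 ± 0.577 FPKM in shLacZ cells, with overlapping intervals.

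Kinesins move chromosomes and spindle microtubules. The 9 genes had medians of -0.02 by summed FPKM and 0.01 by fragments. KIF23, of the central spindle, had 54.7 ± 1.25 FPKM in shPSPC1 and 55.6 ± 1.25 FPKM in shLacZ cells. KIF11 (Eg5), which pushes spindle poles apart, had 37.0 ± 0.726 FPKM in shPSPC1 cells, against 34.7 ± 0.809 FPKM in shLacZ cells (0.09). KIF14, which acts in cytokinesis, was the highest of all 58 by fragments, with 5644 in shPSPC1 and 4421 in shLacZ cells (0.3) and 14.1 ± 0.45 against 11.1 ± 0.333 FPKM. Its annotated transcript stood at 10.9 FPKM in shPSPC1 and 11.1 FPKM in shLacZ cells, and a 29-exon assembled form of 6841 bases, in the shPSPC1 file alone, made up the rest. CENPE, the kinesin of the kinetochore, had 15.0 ± 0.549 in shPSPC1 and 12.3 ± 0.434 FPKM in shLacZ cells, and 0.24 by fragments. KIF15 lay on the other side, with 7.26 ± 0.33 in shPSPC1 and 8.27 ± 0.413 FPKM in shLacZ cells (-0.19 by fragments). The annotated KIF15 transcript alone was higher in shPSPC1, at 7.26 FPKM against 5.52 FPKM in shLacZ cells. A 37-exon assembled form of 5147 bases, in the shLacZ file alone, made up the rest. It ended at 44907156 on chromosome 3, past the annotated KIF15 end at 44894748, so part of it lies outside the annotated gene. KIF4A, a chromokinesin, had 20.6 ± 0.806 in shPSPC1 and 16.5 ± 0.52 FPKM in shLacZ cells, but 4109 and 4019 fragments, a ratio of 0.01. The remaining kinesins were KIF20B (23.0 FPKM in shPSPC1, 23.6 in shLacZ cells), KIF20A (27.5 and 29.1 FPKM) and KIF2C (23.3 and 23.7 FPKM), all within 0.1 of 0 by fragments.

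Kinetochore genes encode the plates on centromeres that hold microtubules. The 7 genes had a median of -0.05 by both measures. Survivin (BIRC5), of the chromosomal passenger complex, had 63.5 ± 1.34 FPKM in shPSPC1 cells, against 68.4 ± 1.4 FPKM in shLacZ cells (-0.11). CENPF had 46.5 ± 1.12 FPKM in shPSPC1 and 44.2 ± 0.692 FPKM in shLacZ cells, with 25998 and 24143 fragments (0.08). MAD2L1, the checkpoint protein that restrains CDC20, had 31.4 ± 1.31 FPKM in shPSPC1 and 36.7 ± 1.43 FPKM in shLacZ cells (-0.22). Survivin and MAD2L1 were thus lower in shPSPC1 cells beyond their intervals, and both stayed well inside the 2-fold limit. NDC80 and NUF2, partners in the complex that grips microtubules, had ratios of 0.11 and -0.05 by fragments, from 13.3 and 22.2 FPKM in shPSPC1 and 12.2 and 24.0 FPKM in shLacZ cells. CENPA, the centromeric histone H3 variant, had 22.8 in shPSPC1 and 23.5 FPKM in shLacZ cells, and CDCA8 (borealin) 11.4 and 11.8 FPKM.

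Condensin and chromatin genes pack and disentangle chromosomes. The 7 genes had medians of 0.0 by summed FPKM and -0.04 by fragments. TOP2A, the topoisomerase that untangles sister DNA, was the most abundant of all 58 genes, with 207.6 ± 1.61 FPKM in shPSPC1 cells, against 196.7 ± 1.58 FPKM in shLacZ cells (0.08). HMGB2, a chromatin protein, had 115.5 ± 4.37 in shPSPC1 and 104.8 ± 3.78 FPKM in shLacZ cells, a ratio of 0.14 by the sum and 0.05 by fragments. The condensin subunit SMC4 had 48.0 ± 0.824 in shPSPC1 and 59.5 ± 1.51 FPKM in shLacZ cells, with 13612 and 13796 fragments. Its -0.3 by the sum was -0.04 by fragments, and a 20-exon form of 3218 bases at 26.5 FPKM was present in the shLacZ file alone. SMC2, its partner, had 33.4 ± 1.05 in shPSPC1 and 31.6 ± 1.79 FPKM in shLacZ cells, and NCAPD2 33.7 and 33.8 FPKM. MKI67, which encodes the proliferation marker Ki-67, had 15.0 ± 0.396 FPKM in shPSPC1 cells, against 17.9 ± 0.496 FPKM in shLacZ cells, and 9850 against 11945 fragments (-0.28). CDCA2, a phosphatase-targeting protein of anaphase chromatin, had 25.2 ± 0.704 in shPSPC1 and 26.6 ± 0.835 FPKM in shLacZ cells, but 5115 and 6471 fragments (-0.35). In CDCA2 the shLacZ file held 2 assembled forms of 6904 and 4670 bases, longer than the annotated 3720 bases, while the annotated transcript alone stood at 25.2 FPKM in shPSPC1 and 17.9 FPKM in shLacZ cells.

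The cyclosome ubiquitinates securin and cyclins at anaphase. The class of 6 genes, with its activator, its enzyme and substrates beside ESPL1 and G2E3, had a median of -0.09 by both measures. PTTG1, which encodes securin, had 104.1 ± 3.65 FPKM in shPSPC1 cells, against 89.9 ± 3.41 FPKM in shLacZ cells (0.21). UBE2C, the ubiquitin-conjugating enzyme of the cyclosome, had 85.0 ± 3.04 FPKM in shPSPC1 and 85.5 ± 3.06 FPKM in shLacZ cells. CDC20 had 31.2 ± 1.2 FPKM in shPSPC1 and 35.2 ± 1.29 FPKM in shLacZ cells (-0.17). PTTG1 and CDC20 thus lay on opposite sides of 0, each with intervals apart. ESPL1, the separase that securin inhibits, had 5.25 ± 0.239 in shPSPC1 and 6.48 ± 0.318 FPKM in shLacZ cells (-0.26 by both measures). The annotated ESPL1 transcript alone stood at 5.25 FPKM in shPSPC1 and 4.47 FPKM in shLacZ cells. An assembled form of 6690 bases, in the shLacZ file alone, made up the rest. CDCA3 had 23.2 ± 1.27 in shPSPC1 and 27.5 ± 1.39 FPKM in shLacZ cells (-0.24), and G2E3 6.23 and 5.89 FPKM, with overlapping intervals for G2E3. PTTG2, a near copy of PTTG1, was at 0.0851 FPKM in shPSPC1 and listed at 0 in shLacZ cells, and KIF4B, a near copy of KIF4A, at 1.46 and 1.49 FPKM, so little of either member's signal was assigned to its copy.

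The spindle microtubule proteins nucleate, bundle and anchor spindle fibres. These 11 genes had medians of -0.02 by summed FPKM and 0.02 by fragments. NUSAP1 had 56.0 ± 1.65 FPKM in shPSPC1 and 56.6 ± 1.57 FPKM in shLacZ cells. TPX2, which activates Aurora A at the spindle, had 51.7 ± 1.02 FPKM in shPSPC1 cells, against 58.7 ± 1.09 FPKM in shLacZ cells (-0.18 by both measures). TACC3, a stabiliser of spindle fibres, had the lowest sum-based ratio of the 58, with 13.1 ± 0.985 FPKM in shPSPC1 cells and 25.5 ± 1.89 FPKM in shLacZ cells (-0.92). By fragments TACC3 had 1993 in shPSPC1 and 2124 in shLacZ cells, a ratio of -0.11. The gap in the sum lay in a 7-exon assembled transcript of 603 bases at 13.6 FPKM, worth 339 fragments, in the shLacZ file alone, beside annotated levels of 13.1 FPKM in shPSPC1 and 11.9 FPKM in shLacZ cells. HMMR had 43.6 ± 1.63 in shPSPC1 and 40.5 ± 1.17 FPKM in shLacZ cells, and CKAP2 25.1 ± 0.89 in shPSPC1 and 26.4 ± 0.929 FPKM in shLacZ cells. PSRC1, the gene with the fewest fragments, had 5.98 ± 0.659 in shPSPC1 and 6.41 ± 0.679 FPKM in shLacZ cells. CKAP5 (43.7 FPKM in shPSPC1, 41.5 in shLacZ cells), DLGAP5 (41.8 and 41.4 FPKM), ASPM (28.0 and 28.4 FPKM), CKAP2L (7.42 and 6.26 FPKM) and GTSE1 (7.5 and 6.87 FPKM) had fragment-based ratios between 0.03 and 0.18.

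Cytokinesis genes build and position the cleavage furrow. The 4 genes had medians of 0.02 by summed FPKM and 0.01 by fragments. PRC1, which bundles midzone microtubules, had 100.8 ± 2.16 FPKM in shPSPC1 cells, against 86.2 ± 1.8 FPKM in shLacZ cells, but 15239 and 14579 fragments, so that 0.22 by the sum was 0.04 by fragments. ECT2, the exchange factor that activates RhoA at the furrow, had 75.6 ± 2.5 in shPSPC1 and 73.7 ± 5.34 FPKM in shLacZ cells. ANLN, which encodes the scaffold anillin, had 70.2 ± 1.35 in shPSPC1 and 70.2 ± 1.65 FPKM in shLacZ cells. RACGAP1, the central spindle partner of KIF23, had 51.5 ± 1.41 in shPSPC1 and 55.0 ± 1.42 FPKM in shLacZ cells (-0.14 by fragments), with intervals apart.

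Where both measures disagreed, the files differed in their assembled transcripts. The measures were more than 0.1 apart for 13 genes (CDK1, PLK1, CCNB1, CDC25B, KIF20B, KIF4A, SMC2, SMC4, CDCA2, TACC3, HMMR, ASPM and PRC1), and in all 13 the number of assembled transcripts was unequal between the files. Unequal numbers were not particular to these 13, since KIF14, KIF15, ESPL1 and others had them too with measures within 0.1. Another 20 genes had no assembled transcript in either file, and for these the measures were equal. That equality is largely fixed by the calculation, since fragments came from the same FPKM and annotated lengths, and it is no separate check. The median log2 ratio of these 20 genes was -0.04, with a range from -0.24 to 0.11.

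Isoform shares were then compared, calling an intron chain shifted when its share of the gene's FPKM differed by at least 0.3 with intervals apart. Of the 58 genes, 20 had such a chain, against 23.4% of 7105 genes, and 12 had one that was present in both files, against 15.1%. By shares of estimated fragments 12 had one, against 20.5%. HMMR is an example with annotated transcripts: its annotated 18-exon chain of 3141 bases held 0.2 of the FPKM in shPSPC1 and 0.694 in shLacZ cells. An assembled 18-exon chain of 2467 bases, in the shPSPC1 file alone, held another 0.379 there. In NUSAP1, a chain of 2454 bases held 0.256 of the FPKM in shPSPC1 and 0.619 in shLacZ cells, while those of 2451 and 2409 bases held 0.357 and 0.387 in shPSPC1 cells and were listed at 0 in shLacZ cells. CDC25B had 0.384 of its FPKM on the 16-exon chain in shPSPC1 and 0.879 in shLacZ cells, and PRC1 0.245 and 0.554 on its annotated 15-exon chain. An assembled PRC1 chain, also of 15 exons and in the shPSPC1 file alone, held another 0.305 there. The PRC1 call is therefore no difference in the share of 15-exon forms. In each of these an assembled transcript of the same gene was present in 1 file alone. KIF20B, KIF4A, KIF15, SMC4, HMGB2, CDCA2, ESPL1 and TACC3 also had a called chain present in both files, and AURKA, CENPE, SMC2, MKI67, CKAP2, PSRC1, ANLN and ECT2 only in chains of 1 file. For AURKA each file held a 9-exon chain with the same 3' end, of 1443 bases in shPSPC1 and 1449 bases in shLacZ cells, which began at 54966077 in shPSPC1 and at 54963428 in shLacZ cells on the minus strand of chromosome 20. For CKAP2 the 9-exon chains had 3079 bases in shPSPC1 and 3080 bases in shLacZ cells, with starts at 53030218 and 53030214. Chains were told apart by their introns, so the pair was counted as separate chains although nearly equal in extent.

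The 3' ends of assembled transcripts were compared next. An assembled transcript that kept the last annotated intron and ended at least 200 bases short of the annotated end was found for 14 genes in shPSPC1 (24.1%) and 15 genes in shLacZ cells (25.9%), against 14.5% and 13.9% of 6860 spliced genes at 5 FPKM or more. The rule was chosen after the data were seen. Either file had one for 20 genes (34.5%, against 20.4% of the 6860) and both files for 9 (15.5%, against 7.99%). The 6860 genes were not matched to the members for level. Median levels were 31.3 FPKM in shPSPC1 and 31.1 in shLacZ cells for the members, against 8.3 and 8.4 FPKM over 11468 genes. Whether level accounts for the larger shares was not tested. In 5 genes (8.62%, against 5.04%) the ends lay within 50 bases of each other in both files. AURKA had a form ending 598 bases short in both libraries, with 35.1% of its fragments in shPSPC1 and 34.5% in shLacZ cells. CKAP2 had one ending 487 bases short in both, with 57.7% in shPSPC1 and 65.0% in shLacZ cells. HMGB2 had a different form in each library, and both ended 777 bases short. The shPSPC1 form had 5 exons and 35.9% of fragments, and the shLacZ form 4 exons and 24.1%. Those of CDK1 ended 938 bases short in shPSPC1 (19.7% of fragments) and 952 bases short in shLacZ cells (24.0%), and those of TTK 385 bases (33.3%) and 347 bases (19.6%) short. In CCNB1, by contrast, both short forms ended 676 bases short with 61.2% of fragments in shPSPC1 cells, and the shLacZ file had none. CKAP5 likewise had 78.2% of its fragments on short forms in the shPSPC1 file alone, and KIF20B (45.9%), DLGAP5 (45.1%) and SMC4 (33.0%) had theirs in the shLacZ file alone. Shares of this kind rest on 1 assembly per library and have no error beyond it.

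**Figure D4:**
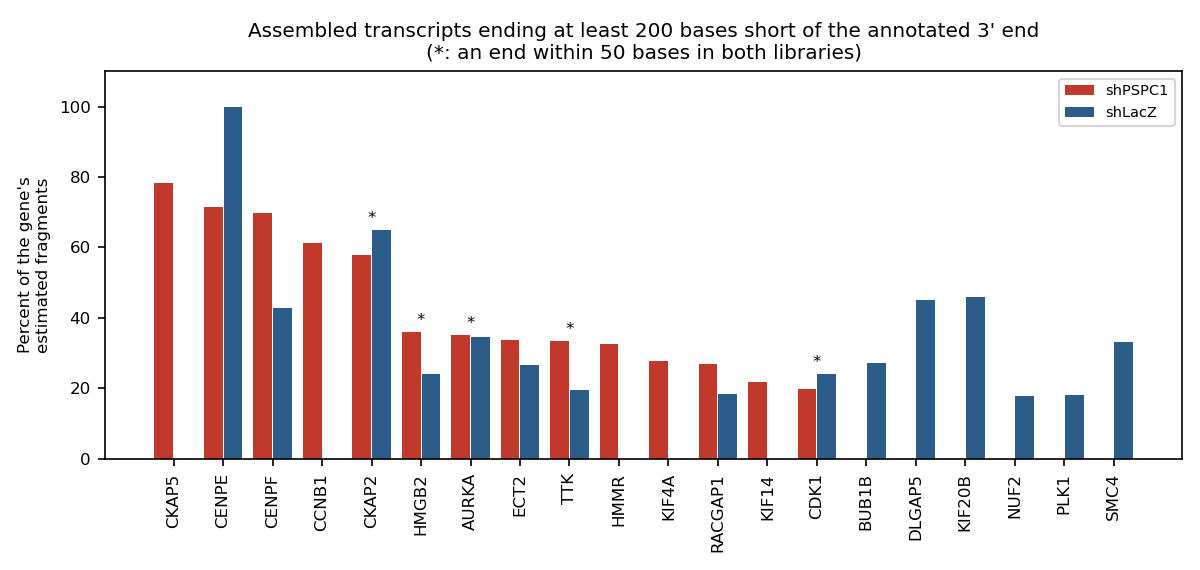
Percent of a gene's estimated fragments (y axis) on assembled transcripts ending at least 200 bases short of the annotated 3' end, in shPSPC1 (red) and shLacZ (blue) cells, 1 library each, for the 20 genes with such a form. An asterisk marks the 5 genes whose ends lie within 50 bases in both libraries, among them AURKA at 35.1% in shPSPC1 and 34.5% in shLacZ cells.

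Ratios were also set beside the promoter matches. By fragments, the 37 genes with a CHR match had a median log2 ratio of 0.0 and a range from -0.28 to 0.3. The 12 genes whose window lacked the letters had a median of -0.02 and a range from -0.19 to 0.24. Of the factors that act on these promoters, B-MYB (MYBL2) was the most abundant of a list of 22 MuvB, MYB and E2F regulators, with 30.5 ± 0.916 FPKM in shPSPC1 cells, against 40.5 ± 1.24 FPKM in shLacZ cells (-0.4 by the sum, -0.34 by fragments, short of the limit). That list had a median of 0.06 by the sum and 0.03 by fragments. Its one gene past the rule by the sum, E2F5, had 2.69 ± 0.153 in shPSPC1 and 6.41 ± 0.561 FPKM in shLacZ cells (-1.0), but 1257 and 1055 fragments, a ratio of 0.22.

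The wider pathway was covered by 5 lists of 108 genes, chosen with earlier results known. Of these genes 105 reached 1 FPKM, and their median was -0.02 by summed FPKM and -0.01 by fragments. By the sum 1 was higher and 3 lower past the rule (1.66% and 1.97% of all genes), and by fragments 1 was higher and 1 lower (1.78% and 1.85%). CKS1B, a small subunit that binds CDK1 and CDK2, fell by both measures, to 32.0 ± 2.17 FPKM in shPSPC1 cells, against 85.8 ± 3.42 FPKM in shLacZ cells (-1.39), with 1292 and 3268 fragments (-1.33). The gap lay on the coding transcript, at 15.7 ± 1.6 in shPSPC1 and 67.7 ± 2.98 FPKM in shLacZ cells, whereas the non-coding transcript stood at 16.3 ± 1.46 and 18.1 ± 1.68 FPKM. Its relative CKS2, the most abundant gene of the same list of kinesins, kinases and CDK1 regulators, had 200.7 ± 5.61 in shPSPC1 and 165.1 ± 5.12 FPKM in shLacZ cells (0.28). The kinesin gene KIF18B was lower past the rule by the sum only, with 4.3 ± 0.306 in shPSPC1 and 15.7 ± 1.11 FPKM in shLacZ cells (-1.66) but -0.44 by fragments. CENPL, of the centromere, had 8.56 ± 0.636 FPKM in shPSPC1 cells and was listed at 0 in shLacZ cells. That 0 came with a 13-exon assembled transcript of 7.81 FPKM in the shLacZ file that spans CENPL from 173764279 to 173837125 on chromosome 1 and was joined to GAS5, so no fold is given.

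The most abundant genes of the remaining lists differed little. UBE2S, the chain-extending enzyme of the cyclosome, had 116.4 ± 2.82 in shPSPC1 and 109.2 ± 2.75 FPKM in shLacZ cells. RAD21, the cohesin subunit that separase cuts, had 48.0 ± 1.76 in shPSPC1 and 44.1 ± 1.56 FPKM in shLacZ cells. ZWINT, of the outer kinetochore, had 100.9 ± 2.8 in shPSPC1 and 80.6 ± 1.96 FPKM in shLacZ cells, 0.32 by the sum and 0.02 by fragments. The lists of cyclosome (17 genes), condensin and cohesin (17 genes) and kinetochore genes (31 genes) had medians by fragments of -0.03, 0.0 and -0.03.

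DNA replication genes, which peak before G2, had a median below 0. Past the rule 0 of 36 were higher and 1, listed at 0 in shPSPC1 cells, was lower, against 1.66% and 1.97% of all genes by the sum. A ratio below 0 was found for 24 of the 36, against 5630 of 11468 genes. The median was -0.11 by the sum and -0.1 by fragments, beside -0.01 and -0.02 for the G2 and mitosis genes. The gene past the rule, PRIM1 (a primase subunit), had 28.6 ± 1.25 FPKM in shLacZ cells. ANAPC10 and ANAPC15, which encode cyclosome subunits, were listed at 0 in both libraries. Whether a listed 0 is a failed estimate or absent RNA was not tested. The PRIM1 value is therefore not read as lower expression, and no fold is given. PCNA, the polymerase clamp and the most abundant of the list, had 427.6 ± 7.95 in shPSPC1 and 466.9 ± 10.3 FPKM in shLacZ cells, with -0.13 by the sum and 0.05 by fragments. Whether the lists differ from each other was not tested.

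**Figure D5:**
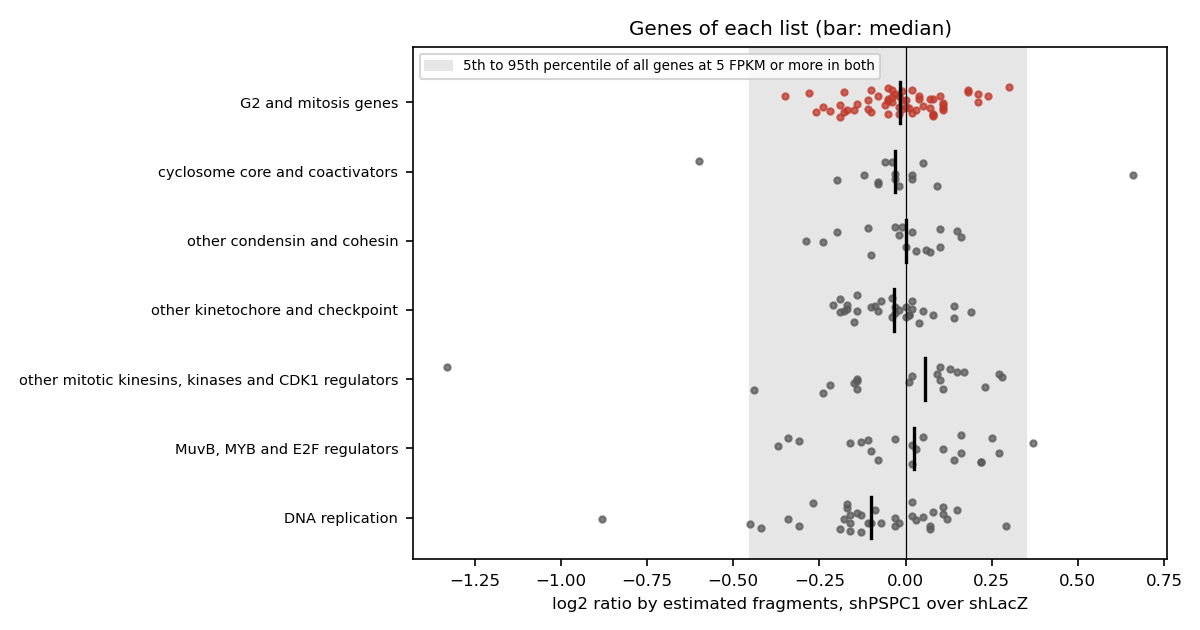
Log2 ratio by estimated fragments, shPSPC1 over shLacZ (x axis), of each gene (points) in the G2 and mitosis genes (red), 5 lists of other pathway genes and the DNA replication list (grey), with a black bar at each median and grey shading from the 5th to the 95th percentile of all genes at 5 FPKM or more in both libraries (-0.45 to 0.35). All 58 G2 and mitosis genes fall inside the shaded range. Genes below 1 FPKM in either library, among them CENPL and PRIM1, are not plotted. They do not enter the black bars either, whereas the list medians in the text include CENPL and PRIM1.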

How the data were processed

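RNA of 2 libraries of A549 cells, 1 with shPSPC1 and 1 with shLacZ, was measured by RNA-seq. Tools listed in the submitters' processing notes are Cufflinks 2.1.1, TopHat2 2.0.7 and CASAVA 1.8.2. The deposited FPKM values and their 95% intervals are the authors' per-transcript values, per the file headers' attribute names, and stand in an attribute field of other text that the authors deposited with each transcript. No source used here gives the files' genome build. Scaffold names and gene positions are those of GRCh37, and coordinates are the files' own except for promoter windows, which are RefSeq sequence on GRCh38.p14. The files hold 43207 annotated and 47148 assembled transcripts for shPSPC1, and 43212 and 39901 for shLacZ.

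Genes were named through RefSeq accessions, with 1679 annotated transcripts left without a gene in the shPSPC1 and 1682 in the shLacZ file. Assembled transcripts with a strand joined the gene with which they shared an intron, and strandless ones (36255 and 29208) were left out. FPKM were summed, and half-widths were combined as the root of their summed squares. Depth came from transcripts alone at their locus, whose intervals gave whole fragment numbers within 0.02 for 94.5% of 35288 in shPSPC1 and 94.2% of 29032 in shLacZ. At 1 FPKM, a transcript of 2000 bases had 105 fragments in shPSPC1 and 103 in shLacZ. Mean fragment lengths were 166 and 162 bases. Estimated fragments were FPKM times effective length and depth, with exact Poisson intervals that cover counting error only. PCR copies cannot be told from separate molecules. The calculation was tested on simulated data. Whether reads were counted by strand is not stated, so overlapping genes on opposite strands may share reads.

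Named in full were genes past the 2-fold rule or at 0.5 on the log2 scale, the 2 most abundant of each of 8 classes and genes with a called share. Other members were added after their values were seen. Members, lists and rules were chosen with earlier results of these data known. Alternatives were other ways of summing, minimum levels and pseudocounts. Python 3.11.15, NumPy 2.4.6, pandas 2.3.3, SciPy 1.17.1 and Matplotlib 3.10.9 were used.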

Additional observations from a re-analysis of the deposited data

How the results depend on the processing

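The median over the 58 genes was -0.01 or -0.02 under each setting run, and 0 genes were higher or lower past the 2-fold rule except in the next one. With annotated RefSeq transcripts only, 1 gene was higher (CENPE, 2.3) and 2 were lower (CCNB1, -1.36, and CKAP5, -2.05), since assembled transcripts are left out by construction. That setting also gave class medians of -0.11 for cyclins, CDC25 phosphatases and FOXM1, 0.03 for the cyclosome, 0.19 for spindle microtubule proteins and -0.19 for cytokinesis, and -2.46 for PSPC1. With only the most abundant transcript of each gene, the medians were -0.16 for cyclins, CDC25 phosphatases and FOXM1, 0.43 for condensin and mitotic chromatin, 0.03 for the cyclosome and -0.17 for cytokinesis, and PSPC1 was at -0.58. The cause was not tested. Share calls covered 20 genes by FPKM, 12 by shares of fragments (against 20.5% of all genes) and 12 with intron chains present in both files (against 15.1%), a setting added after the data were seen. Estimated fragments moved 13 of 58 single genes beyond their intervals, annotated transcripts only 32 and the most abundant transcript 31, whereas a pseudocount of 0.1, exon overlap and a median set to 0 moved 0. No paired analysis was possible because each group has 1 library, and for the same reason no library could be left out. With 479 fragments or more per gene, counting error of a log2 ratio was at most 0.18, and the spread between libraries of a group is unknown.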

Other observations

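Assembled transcripts without a strand, mostly of a single exon, were left out of the gene levels. Inside the G2 and mitosis genes there were 17 such pieces in 8 genes in the shPSPC1 file and 25 pieces in 11 genes in the shLacZ file, or 0.0469% and 0.0856% of all strandless pieces. One piece of 101 bases in CDK1, at chr10:62547459-62547559 in the files' coordinates, is listed at 531476 FPKM (interval 393091 to 669860) in the shPSPC1 file alone. Its interval corresponds to 59 fragments. The piece is shorter than the mean fragment of 166 bases, and the value is therefore no level of CDK1.

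FZR1, the G1 activator of the cyclosome, had nearly equal sums, 9.88 ± 0.449 in shPSPC1 and 9.89 ± 0.641 FPKM in shLacZ cells, but 2576 and 1539 fragments (0.66). CDC23, a cyclosome subunit, had 13.3 ± 0.557 in shPSPC1 and 20.5 ± 0.699 FPKM in shLacZ cells (-0.6 by both measures). Both genes were chosen after their values were seen, and both lay within the 2-fold limit.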
